A study of Mus musculus with 24 samples.

Results

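The D-box factors of the circadian clock were followed in mouse liver: the 3 activators *Dbp*, *Tef* and *Hlf* and the repressor *Nfil3*, which is also called *E4bp4*. The members were chosen by gene name, and all 4 of the 4 genes were found among the 54733 genes of the deposited tables and among the 11244 genes whose level averaged at least 1 FPKM. FPKM is the number of fragments of a gene scaled by the length of its transcript and by the sequencing yield of the library, so that levels of different genes can be set side by side. The data are 24 libraries of poly(A)-tailed RNA from livers of male C57BL/6 mice, 12 of them WT and 12 ΔRRE. Each genotype has 2 libraries for each of 6 times of day, which lie 4 h apart from CT2 to CT22. CT is circadian time, and the study's methods place tissue collection in constant darkness. ΔRRE mice are homozygous for a CRISPR-Cas9 deletion of both RREs of *Bmal1*, which the files list as *Arntl*. The mutants derive, unless the study says otherwise, from 1 of its mutant lines, and the deletion is present in every cell of the animal. Tissue RNA was taken from adults, and the labels give no age for single mice. No source used here says whether each library came from 1 mouse, so the p-values measure only the spread between these libraries.

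DBP, TEF and HLF are the PAR bZIP proteins, leucine zipper factors that bind the D-box and activate transcription from it. NFIL3 binds the same element and represses it, so genes with a D-box are read by activators and a repressor that compete. *Dbp* is itself a textbook target of CLOCK and BMAL1 through E-boxes, whereas *Nfil3* is a target of REV-ERB and ROR proteins through the RRE, and the D-box loop therefore links the other arms of the clock. In liver these factors are known for their control of enzymes of detoxification and of heme and bile acid metabolism. The question put to these libraries is how the activators and the repressor ran against each other through the day with and without the RREs of *Bmal1*.

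Libraries stood close together. The FPKM of a library summed to between 554170 and 624746, and Pearson's r between the replicates of a group, across genes on the log2 scale, was between 0.955 and 0.974. For pairs from different groups the median r was 0.956 and the lowest 0.920, so the lowest replicate pair was no closer than a typical other pair. The files give no read counts, so the depth behind a value is unknown and no counting error is given. *Arntl* ranged from 0.0919 to 13.2 FPKM in WT and from 2.1 to 4.21 FPKM in ΔRRE, which is a check of the genotype labels. Of the cell type markers, all 5 of the hepatocyte list were far above 0, with *Alb* at no less than 18568 FPKM, whereas the 5 lymphocyte markers summed to at most 2.84 FPKM in any library. The 3 red blood cell markers summed to between 314 and 977 FPKM in WT and between 350 and 2819 FPKM in ΔRRE, and their part in the results was not tested. In whole liver, fewer cells of a type and less RNA per cell cannot be told apart.

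The genes lie on different chromosomes of GRCm38. *Dbp* (ENSMUSG00000059824) is at chr7:45705088-45710203 on the plus strand, and its exons overlap 539 bases of exons of *Sphk2* on the opposite strand. *Sphk2* stood between 5.87 and 24.7 FPKM, so it was not silent where *Dbp* was at its lowest. *Tef* (ENSMUSG00000022389) is at chr15:81802421-81826863 on the plus strand and overlaps 193 exon bases of the antisense gene *Gm17597*, which did not exceed 0.620 FPKM. *Hlf* (ENSMUSG00000003949) is at chr11:90336536-90390895 and *Nfil3* (ENSMUSG00000056749) at chr13:52967209-52981073, both on the minus strand. The libraries were directional, but the sources used here do not say that the counting used strand, and the part of *Sphk2* in the lowest *Dbp* values was not tested.

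The promoter windows of the RefSeq annotation of GRCm38.p6, from 250 bases before to 50 bases after each start, were searched on both strands for the elements that tie these genes to the clock. All 4 genes had a window, *Tef* having a pair of starts. The perfect E-box CACGTG, which reads the same on both strands, stood in both windows of *Tef* and in 7.15% of all 32851 windows. No E-box lay in the windows of *Dbp*, *Hlf* and *Nfil3*, and neither the related CACGTT (4.68% of windows), nor the D-box (1.94%), nor the whole RRE (0.384%) was found in any window of the 4 genes. The half-site AGGTCA, which is the end of the RRE, is found in 16.3% of windows, with or without the whole RRE. It occurred once, in reverse, in the window of *Nfil3*. The matches are shown because they are the clock elements that the windows of these genes hold, with the element in capitals, written 5′ to 3′ on the strand of the gene.
Tef, first start, chr15:81802534-81802563, plus strand: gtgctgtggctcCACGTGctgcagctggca
Tef, second start, chr15:81811264-81811293, plus strand: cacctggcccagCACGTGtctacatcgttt
Nfil3, chr13:52981034-52981063, minus strand: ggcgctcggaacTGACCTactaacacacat
The E-boxes of *Tef* begin at positions -127 and -138 from their starts, and the half-site of *Nfil3* at position -12. These matches are a description of letters and not of binding, and the absence of a match speaks only of these windows.

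*Dbp* had the widest swing of the members. In WT its 2 libraries held 0.836 and 0.261 FPKM at CT2, 43.8 and 22.7 at CT6, 100.6 and 107.8 at CT10, 21.2 and 29.4 at CT14, 3.14 and 3.45 at CT18, and 0.873 and 1.34 at CT22. In ΔRRE they held 0.367 and 0.679 FPKM at CT2, 20.0 and 7.71 at CT6, 107.0 and 58.5 at CT10, 34.0 and 17.2 at CT14, 2.44 and 2.98 at CT18, and 1.72 and 2.18 at CT22. The gene was highest at CT10 and lowest at CT2 in both genotypes, and the libraries of CT10 lay above those of every other time point. The order of the time points below CT10 was CT6, CT14, CT18, CT22 and CT2 in WT, where only CT6 and CT14 overlapped. In ΔRRE the means of CT14 and CT6 stood the other way round, and their libraries overlapped again. The mean of CT10 was 190-fold that of CT2 in WT and 158-fold in ΔRRE.

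*Tef* followed with a smaller and later swing. Its WT libraries held 6.58 and 6.39 FPKM at CT2, 34.6 and 20.3 at CT6, 68.1 and 71.7 at CT10, 48.3 and 54.6 at CT14, 30.4 and 35.4 at CT18, and 14.0 and 18.2 at CT22. The ΔRRE libraries held 7.64 and 8.40 FPKM at CT2, 24.3 and 16.2 at CT6, 58.0 and 65.8 at CT10, 54.4 and 47.2 at CT14, 24.99 and 22.8 at CT18, and 14.0 and 18.4 at CT22. The order CT10, CT14, CT18, CT6, CT22, CT2 was the same in both genotypes. CT18 and CT6 overlapped in both genotypes, and CT6 and CT22 overlapped in ΔRRE. The highest mean was 10.8-fold the lowest in WT and 7.72-fold in ΔRRE. At CT18, when *Dbp* had fallen to 3.30 ± 0.220 FPKM (SD, n = 2) in WT, *Tef* still stood at 32.9 ± 3.57 FPKM (SD, n = 2).

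*Hlf* had the smallest swing of the members. In WT it was at 7.83 and 6.81 FPKM at CT2, 6.39 and 6.35 at CT6, 10.1 and 8.41 at CT10, 9.66 and 16.2 at CT14, 6.86 and 9.69 at CT18, and 6.23 and 9.29 at CT22. In ΔRRE it was at 8.93 and 8.88 FPKM at CT2, 9.55 and 11 at CT6, 7.75 and 7.43 at CT10, 7.62 and 11.9 at CT14, 7.63 and 8.51 at CT18, and 4.96 and 6.95 at CT22. Most neighbours in the order of its time points overlapped, and the highest mean was 2.03-fold the lowest in WT, with CT14 over CT6, and 1.73-fold in ΔRRE, with CT6 over CT22. The time point that was lowest in WT was therefore the highest in ΔRRE.

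*Nfil3* ran in the opposite direction. Its WT libraries held 27.8 and 27.6 FPKM at CT2, 8.58 and 5.25 at CT6, 2.91 and 3.20 at CT10, 15.7 and 5.41 at CT14, 12.6 and 15.7 at CT18, and 22.8 and 16.0 at CT22. The ΔRRE libraries held 27.5 and 27.3 FPKM at CT2, 11.5 and 14.0 at CT6, 5 and 4 at CT10, 9.67 and 7.69 at CT14, 13.1 and 17.1 at CT18, and 27.0 and 31.3 at CT22. The repressor was lowest at CT10, where *Dbp* and *Tef* were highest, in both genotypes. It was highest at CT2 in WT, and at CT22 and CT2, which overlapped, in ΔRRE. Highest over lowest mean was 9.06 in WT and 6.49 in ΔRRE. The WT replicates of CT14 differed more than any other pair of this gene, and the higher of them, at 15.7 FPKM, was level with the higher library of CT18.

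**Figure D1:**
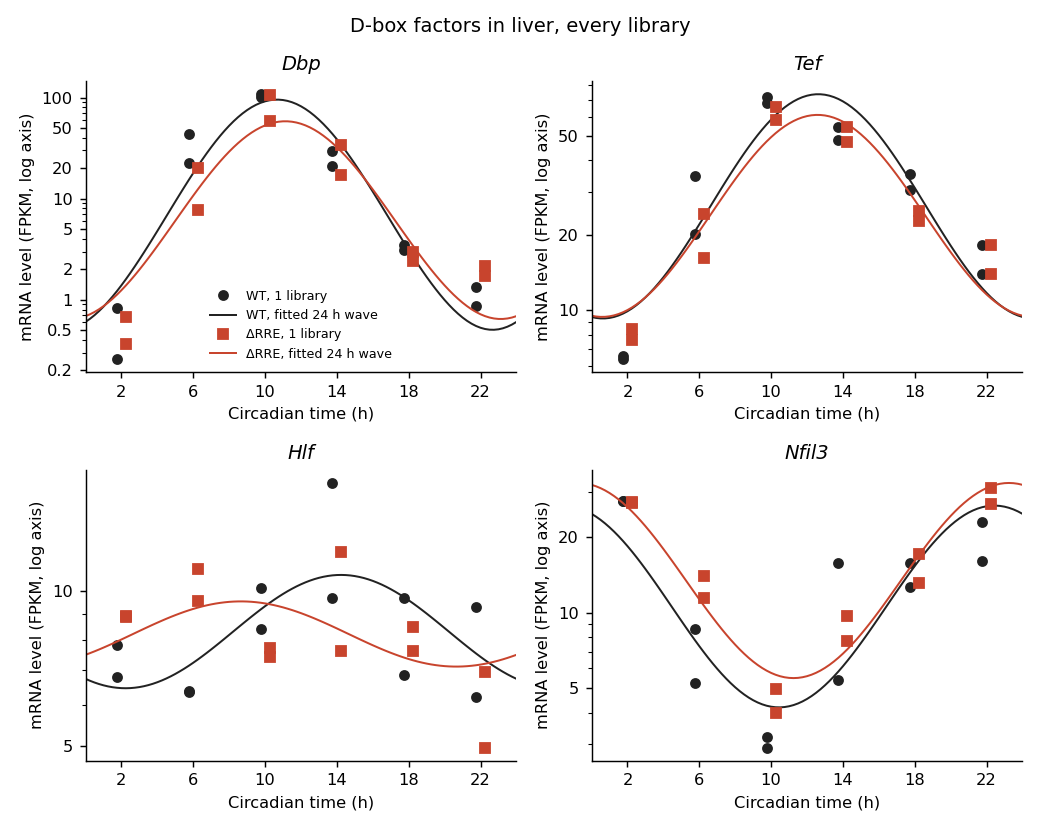
Level of each D-box factor in every library (y axis, FPKM, log axis) against circadian time (x axis, h), with WT as black circles and ΔRRE as red squares set slightly apart, and the 24 h wave fitted to the 12 libraries of each genotype as lines. *Dbp*, *Tef* and *Nfil3* swing in both genotypes, *Dbp* from under 1 to over 100 FPKM in WT, while *Hlf* stays between 4.96 and 16.2 FPKM.

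Rhythms were tested by harmonic regression, in which a 24 h cosine wave of free height and phase was fitted to log2(FPKM + 0.1) of the 12 libraries of a genotype and tested with limma. The amplitude is the height of the fitted wave above its middle, on the log2 scale. At a Benjamini-Hochberg adjusted p under 0.05 over the 11244 genes, 3 of the 4 members were rhythmic in WT, where 10.3% of all genes tested were called, and the same 3 of 4 in ΔRRE, where 4.57% were called. By the 3 criteria of the study's methods, with the harmonic p under 0.3, a highest mean over 1.5 times the lowest and a limit on the largest SD, all 4 members were rhythmic in both genotypes. These criteria called 37% of all genes in WT and 35.4% in ΔRRE. The WT count fell to 3 of 4 when CT14 was left out. The ΔRRE count fell to 3 of 4 with a ratio over 2, when CT6 or CT22 was left out, and without any single library of CT6 or CT22.

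*Dbp* had an amplitude of 3.65 ± 0.348 (SE) in WT with a peak at CT10.7 ± 0.364 h (SE) and an adjusted p of 0.000324. In ΔRRE the amplitude was 3.15 ± 0.364 with a peak at CT11.1 ± 0.442 h and an adjusted p of 0.00173. No gene of the 11244 had a larger fitted amplitude in WT, and 1 gene, *Ciart*, a repressor of CLOCK and BMAL1, did in ΔRRE with 3.41. This rank was taken with 0.1 FPKM added only. With 1 FPKM added the amplitude of *Dbp* was 3.07 in WT and 2.65 in ΔRRE, and with 0.01 FPKM added it was 3.75 and 3.23. *Tef* had an amplitude of 1.49 ± 0.172 in WT and 1.34 ± 0.137 in ΔRRE, with the same peak at CT12.6 in both, and adjusted p-values of 0.000824 and 0.000943. The amplitude of *Hlf* was 0.36 ± 0.120 in WT and 0.21 ± 0.117 in ΔRRE, where the median over all genes was 0.20 and 0.19, and neither wave passed the test, with adjusted p-values of 0.141 and 0.486. Its fitted peak was at CT14.2 ± 1.27 h in WT and at CT8.65 ± 2.16 h in ΔRRE, and a peak time of a wave that did not pass the test is given only as a value. *Nfil3* had an amplitude of 1.32 ± 0.228 in WT with a peak at CT22.4 ± 0.662 h and an adjusted p of 0.00903. In ΔRRE it was 1.28 ± 0.112 with a peak at CT23.2 ± 0.334 h and an adjusted p of 0.000431. The WT call of *Nfil3* was the least secure of the 6 calls: it was lost with an adjusted p of 0.0649 when genes of low level were tested as well, and with 0.128 when CT10 was left out.

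The fitted peak of the repressor lay 11.8 h after that of *Dbp* in WT and 12.1 h after it in ΔRRE. Both lags are close to opposite phase. The same peak lay 9.81 h after the fitted peak of *Tef* in WT and 10.7 h after it in ΔRRE. No SE was computed for these lags. In WT the highest *Nfil3* libraries were those of CT2, after its fitted peak at CT22.4, and those of CT22 lay below them. The wave carried most of the variance of these genes on the log2 scale: 89.6% for *Dbp*, 85.9% for *Tef* and 72.8% for *Nfil3* in WT, and 85.7%, 89.2% and 92.4% in ΔRRE. For *Hlf* it carried 45.3% in WT and 22.6% in ΔRRE.

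The day was not a pure cosine for every member. A 12 h component common to both genotypes was tested beside the 24 h wave, and 2.48% of all genes were called. *Tef* had a 12 h amplitude of 0.43 with an adjusted p of 0.0128 and *Dbp* one of 0.96 with 0.0241. Without the first ΔRRE library of CT22 the 12 h amplitude of *Dbp* was 0.92 and its adjusted p was 0.0516, just past the threshold. *Nfil3* had a 12 h amplitude of 0.43 and an adjusted p of 0.0679, which fell to 0.0292 without the second WT library of CT14, and *Hlf* had 0.19 with 0.352. The maxima of the added component fell at 8.71 h for *Dbp* and 8.94 h for *Tef*, and at 2.80 h for *Nfil3*, each with a second maximum 12 h later.

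**Figure D2:**
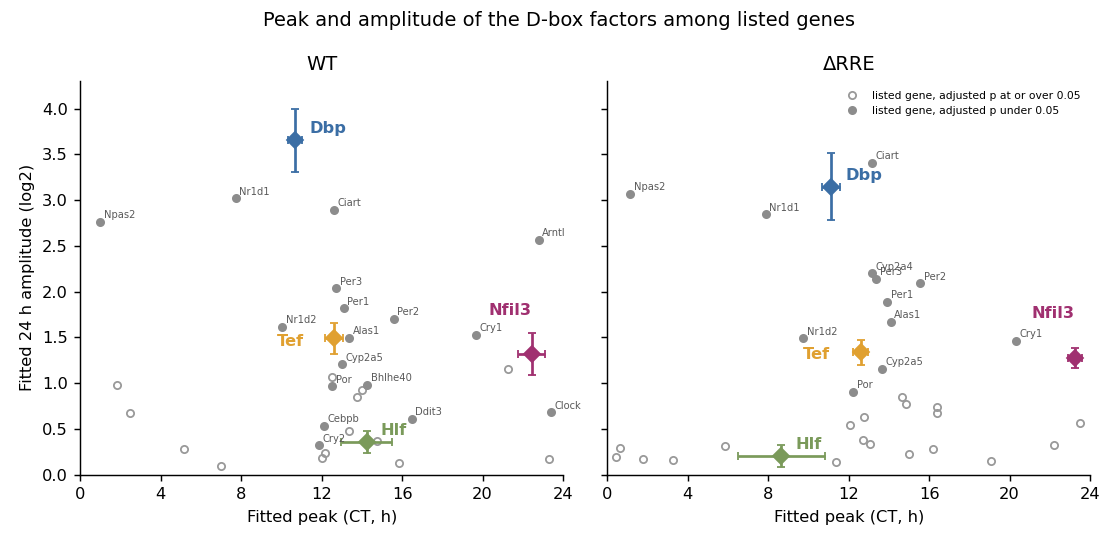
Fitted 24 h amplitude (y axis, log2) against fitted peak (x axis, CT in h) in WT (left) and ΔRRE (right), with the D-box factors as coloured diamonds (bars, SE) and the genes of the clock, output and C/EBP lists as circles, filled where the adjusted p was under 0.05. *Dbp* stands at CT10.7 and CT11.1 near the top of the plots, *Nfil3* at CT22.4 and CT23.2 on the opposite side of the day, and *Hlf* at the bottom.

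The genotypes were compared first in the shape of the rhythm. In 1 model of all 24 libraries, 0.00889% of genes differed in their 24 h wave at an adjusted p under 0.05. This was the single gene *Arntl*, and none of the 4 members was called. *Arntl* passed with an amplitude difference of -2.27 and an adjusted p of 0.0463 in limma, so smaller changes can be missed by this test. In fits that left out 1 library, 1 gene was called in 5 of 24 and no gene in the others. No gene was called with the replicate number as a block, with 0.01 FPKM added, with no filter, with a mean of at least 5 FPKM or with a prior without trend. With limma the unadjusted p was 0.503 for *Dbp*, 0.819 for *Tef*, 0.0991 for *Hlf* and 0.604 for *Nfil3*, so that 0 of 4 members lay under 0.05 before adjustment. An exact two-sided permutation test over all 23328 ways to split the 4 libraries within time points into 2 and 2 gave p = 0.181 for *Dbp*, 0.606 for *Tef*, 0.105 for *Hlf* and 0.559 for *Nfil3*, where the smallest p that the design allows is 4.29e-05. ΔRRE minus WT, the amplitude differed by -0.51 for *Dbp*, -0.15 for *Tef*, -0.15 for *Hlf* and -0.04 for *Nfil3*. The sign is the same in the 4 genes, but that of *Nfil3*, *Tef* and *Hlf* turned when certain time points were left out. The largest shift of peak among the 3 rhythmic members was 0.81 h for *Nfil3*, against SEs of 0.662 h and 0.334 h. It is a later fitted peak in ΔRRE, whereas the highest time-point mean of *Nfil3* was at CT2 in WT and CT22 in ΔRRE.

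The mean level over the day was compared with the time point as a factor. No gene passed an adjusted p under 0.05 with limma (0% of the genes tested), and 1002 genes (8.91%) had an unadjusted p under 0.05. The largest difference among the members was that of *Nfil3*, which was 0.34 ± 0.149 (SE) higher in ΔRRE on the log2 scale, with a 95% interval from 0.03 to 0.65, an unadjusted p of 0.0338 and an adjusted p of 0.527. The exact permutation test gave p = 0.05003 for it, 1167 of the 23328 divisions being as large, so that this difference is at the edge of the threshold for 1 gene and does not pass it over all genes. The activators did not pass either test. *Dbp* differed by -0.20 ± 0.226 with an interval from -0.67 to 0.27, *Tef* by -0.13 ± 0.0993 with one from -0.33 to 0.08, and *Hlf* by -0.02 ± 0.127 with one from -0.28 to 0.25. Exact permutation p-values were 0.430, 0.243 and 0.908. The sign of the *Dbp* difference rested on CT6, without which it was 0.02. Over all genes the median difference was 0.04, with 65.5% of genes higher in ΔRRE.

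Single time points show where in the day these differences lay. Of 67464 tests of a gene at a time point, 7 passed an adjusted p under 0.05 (0.0104%), and none was a member, whose smallest adjusted p was 0.883. At CT6, 3 of the 4 members had an unadjusted p under 0.05, as did 3.28% of all genes at that time point, and no member did at any other time point. There *Dbp* was lower in ΔRRE by 1.34 ± 0.501 (SE) on the log2 scale, with 20.0 and 7.71 FPKM against 43.8 and 22.7. *Nfil3* was higher in ΔRRE by 0.91 ± 0.351, with 11.5 and 14.0 FPKM against 8.58 and 5.25. *Hlf* was higher by 0.68 ± 0.265, with 9.55 and 11 FPKM against 6.39 and 6.35. *Tef* differed by -0.42 ± 0.229 with overlapping libraries. Adjusted p-values at CT6 were 1 for all 4 genes, and no gene was called there.

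The libraries of the genotypes did not overlap in 13 of the 24 combinations of member and time point. ΔRRE was higher in 7 of 24 (29.2%), against 19.3% over all genes and time points, and lower in 6 of 24 (25%), against 11.9% over all. *Nfil3* was higher in ΔRRE at CT6, CT10 and CT22 and lower at CT2, where 27.5 and 27.3 FPKM stood against 27.8 and 27.6. *Dbp* was lower at CT6 and CT18 and higher at CT22, where ΔRRE held 1.72 and 2.18 FPKM against 0.873 and 1.34. *Tef* was lower at CT10 and CT18 and higher at CT2, and *Hlf* was higher at CT2 and CT6 and lower at CT10. With 2 libraries against 2 such a separation is frequent, as the shares over all genes show. A dependence of the genotype difference on the time point, tested as an interaction of all 6 time points, was called for 0.0356% of genes and for none of the 4 members, with unadjusted p-values in limma of 0.150 for *Dbp*, 0.232 for *Tef*, 0.0689 for *Hlf* and 0.309 for *Nfil3*.

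**Figure D3:**
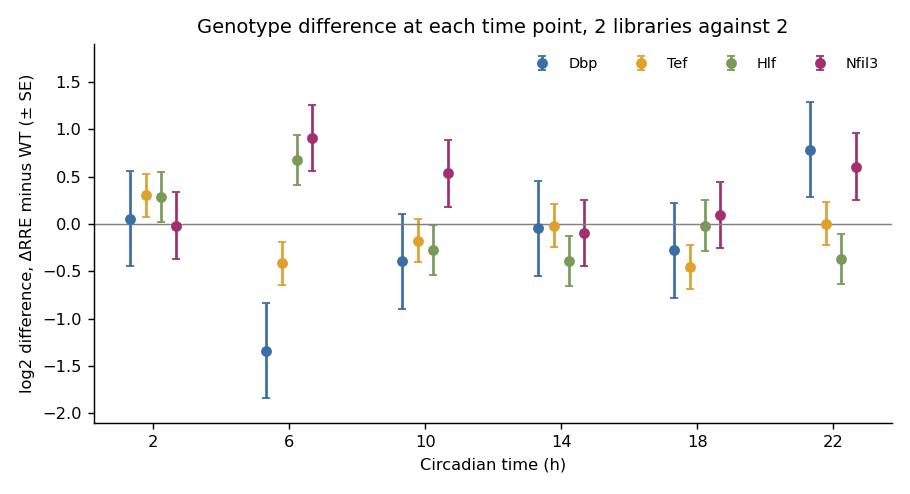
Difference of each D-box factor between the genotypes (y axis, log2, ΔRRE minus WT, bars show the SE of the limma fit) at each circadian time (x axis, h, genes set slightly apart), from 2 libraries against 2. At CT6 *Dbp* is lowest at -1.34 while *Hlf* and *Nfil3* stand above 0, and no point passed the adjusted p.

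The activators were then set against the repressor within each library. The sum of *Dbp*, *Tef* and *Hlf* was divided by *Nfil3*, all in FPKM and thus per length, and the ratio was taken as a description of mRNA, with no test. In WT the ratio was 0.548 and 0.488 at CT2, 9.88 and 9.40 at CT6, 61.4 and 58.6 at CT10, 5.04 and 18.5 at CT14, 3.21 and 3.10 at CT18, and 0.923 and 1.81 at CT22. In ΔRRE it was 0.615 and 0.659 at CT2, 4.69 and 2.49 at CT6, 34.6 and 32.9 at CT10, 9.93 and 9.92 at CT14, 2.67 and 2.00 at CT18, and 0.764 and 0.877 at CT22. The repressor thus exceeded the summed activators in all libraries of CT2 and in 1 WT and both ΔRRE libraries of CT22. The ratio of the ΔRRE libraries was lower than that of both WT libraries at CT6, CT10, CT18 and CT22, higher at CT2, and overlapping at CT14. Over all single genes and time points, the ΔRRE libraries stood apart as higher in 19.3% of cases and as lower in 11.9%. No such share was taken for ratios. On the log2 scale, with 0.1 FPKM added, the balance spanned 6.81 from CT2 to CT10 in WT and 5.69 in ΔRRE. Its pooled SD between replicates was 0.608 in WT and 0.296 in ΔRRE. The span was 6.88 and 5.84 when the 3 activators were averaged as log2 values in place of the sum. In that form 3 time points held lower ΔRRE libraries, and CT2, CT14 and CT22 overlapped.

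**Figure D4:**
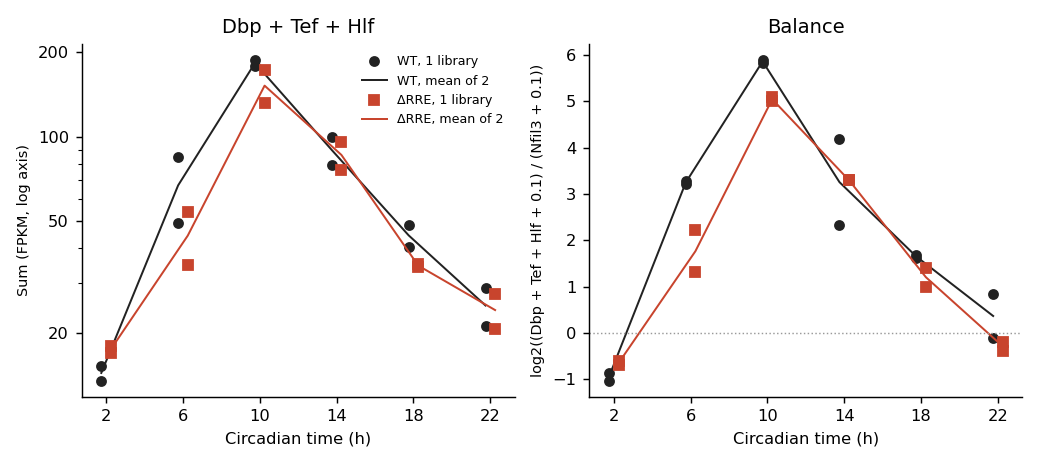
Summed activators (left, FPKM, log axis) and the log2 balance of activators to *Nfil3* (right) in every library against circadian time (x axis, h), with lines through the means of 2 libraries for WT (black circles) and ΔRRE (red squares). The WT balance reaches 5.86 at CT10 and falls to -0.95 at CT2, and the ΔRRE balance runs from 5.05 to -0.65.

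The make-up of the activators turned over within the day. *Dbp* made up 56.8% ± 0.780 (SD, n = 2) of their summed FPKM at CT10 in WT and 3.71% ± 2.51 (SD, n = 2) at CT2, and in ΔRRE 53.2% ± 12.4 and 2.97% ± 1.14. *Tef* held the largest share at CT18, with 74.1% in WT and 68.9% in ΔRRE. *Hlf* held 51.0% ± 0.561 (SD, n = 2) in WT and 51.1% ± 2.32 in ΔRRE at CT2. The other activators were then at their lowest, while the means of *Hlf* spanned 2.03-fold in WT and 1.73-fold in ΔRRE. At CT6 the *Dbp* share was 51.7% and 46.0% in the WT libraries and 37.2% and 22.1% in the ΔRRE libraries, which did not overlap. At CT22 the *Dbp* share was higher in ΔRRE, with 8.33% and 7.92% against 4.14% and 4.65%, and it overlapped at the other time points. The *Tef* and *Hlf* shares did not overlap at CT6, CT18 and CT22 either. No share over all genes was taken for such percentages.

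**Figure D5:**
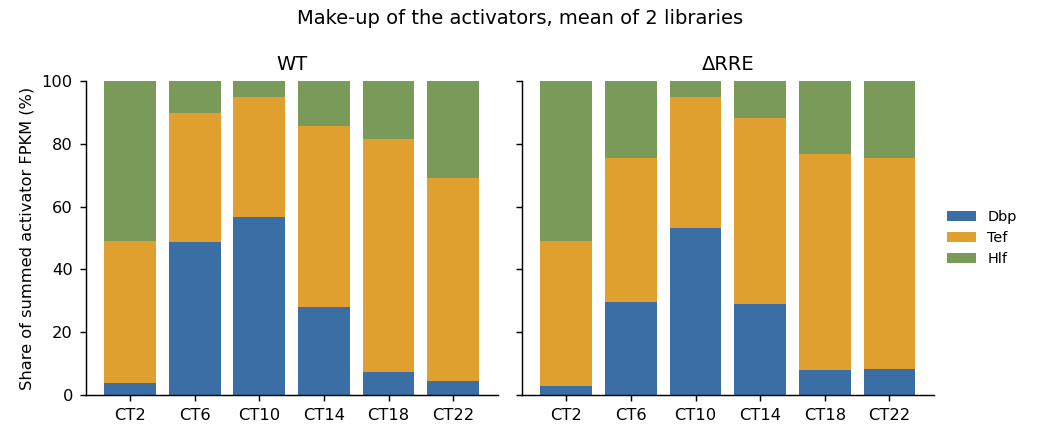
Share of *Dbp*, *Tef* and *Hlf* in their summed FPKM (y axis, %) at each circadian time (x axis), as stacked means of 2 libraries, in WT (left) and ΔRRE (right). *Dbp* fills more than 50% only at CT10, *Tef* dominates from CT14 to CT22, and *Hlf* holds about the same share as the other activators together at CT2.

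The genes whose pattern was most like that of a member were found by Pearson's r on the log2 scale over the 24 libraries, which share time point and genotype between genes, so r is a description. For *Dbp* they were *Wipf3* (0.924), *Upp2* (0.902), *Pcsk4* (0.896), *Tef* (0.895) and *Nr1d2* (0.890). For *Tef* they were *Per3* (0.972), *Pcsk4* (0.955), *Ciart* (0.952), *Per1* (0.907) and *Usp2* (0.901). For *Nfil3* they were *Abtb2* (0.936), *Pnrc1* (0.933), *Lgalsl* (0.925) and *Pdk4* (0.919). For *Hlf* no gene exceeded the 0.686 of *Ankib1*, followed by *Strn3*, *Mylk*, *Anxa11* and *Dock5* down to 0.653. Between members, r was -0.911 for *Dbp* and *Nfil3* over the 12 WT libraries and -0.917 over the 12 ΔRRE libraries. For *Dbp* and *Tef* it was 0.875 and 0.921, and for *Hlf* and *Nfil3* -0.333 and -0.225.

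Genes of the clock that hold a D-box were described as a list of 8, of which 7 reached the mean of 1 FPKM and *Rorb* did not. Of these, 6 were rhythmic at an adjusted p under 0.05 in WT and the same number in ΔRRE, *Rora* being the exception in both. Over all genes tested the shares were 10.3% in WT and 4.57% in ΔRRE. *Per3*, a period gene, peaked at CT12.7 in WT and CT13.4 in ΔRRE with amplitudes of 2.04 and 2.14. *Per1* peaked at CT13.1 and CT13.9 with 1.82 and 1.89. The SE of the peak was 0.468 h and 0.359 h for *Per3*, and 0.433 h and 0.501 h for *Per1*. The fitted peak of *Tef* was at CT12.6 in both genotypes, with an SE of 0.441 h in WT. In WT it stood within the SE of the *Per3* peak, and the order of these peaks was not tested. *Per2* peaked at CT15.6 and CT15.5 with 1.71 and 2.09. *Nr1d1*, which encodes the repressor REV-ERBα that acts on the RRE, peaked earlier than any activator here, at CT7.72 and CT7.88 with amplitudes of 3.02 and 2.84, and *Nr1d2*, its paralog, at CT10.0 and CT9.73. *Cry1*, a repressor of CLOCK and BMAL1, peaked at CT19.7 and CT20.3. None of the 7 differed between the genotypes in rhythm or in mean level after adjustment. None had an unadjusted p under 0.05 for the 24 h wave. For the interaction of all 6 time points *Cry1* alone of the 7 had one, at 0.0118 (adjusted 0.99991) in limma. Over all genes, 372 of 11244 were under 0.05 in that test. For the mean level, 3 of 7 had an unadjusted p under 0.05 in limma, as did 8.91% of all genes. These were *Per1* with 0.40 ± 0.179 (SE), *Per2* with -0.50 ± 0.163 and *Rora* with 0.16 ± 0.0690, ΔRRE minus WT on the log2 scale. The median difference of the list was -0.03, and that of all genes 0.04.

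The regulators upstream of the members, a list of 14 that shares genes with the former one, had 13 genes tested. In WT 12 and in ΔRRE 8 of them were rhythmic at an adjusted p under 0.05, against 10.3% and 4.57% of all genes tested. *Arntl* had an amplitude of 2.57 ± 0.305 (SE) in WT and 0.29 in ΔRRE and was the one gene of the list that differed in rhythm, with an adjusted p of 0.0463, a call that was lost under the settings named above. No gene of the list differed in mean level after adjustment in limma, and 3 of 13 had an unadjusted p under 0.05, against 8.91% of all genes. They are *Per1*, *Per2* and *Rora* of the former list. *Npas2*, a partner of BMAL1, peaked at CT0.987 in WT and CT1.13 in ΔRRE with amplitudes of 2.76 and 3.07. *Ciart* peaked at CT12.6 and CT13.2 with 2.90 and 3.41. *Clock*, *Cry2* and *Bhlhe40* were called in WT with adjusted p-values of 0.0166, 0.0302 and 0.00621, and had 0.124, 0.148 and 0.0643 in ΔRRE. Their difference in rhythm between the genotypes had adjusted p-values of 0.99993, so a change of their rhythm was not shown.

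Of 14 genes known as outputs of the PAR bZIP factors in liver, 12 were tested, and *Cyp2b13* and *Acot5* were too low. At an adjusted p under 0.05, 3 were rhythmic in WT and 4 in ΔRRE, against 10.3% and 4.57% of all genes tested. The median amplitude of the list was 0.95 and 0.53, against 0.20 and 0.19 over all genes. *Por*, the electron donor of the cytochrome P450 enzymes, peaked at CT12.5 in WT and CT12.2 in ΔRRE with amplitudes of 0.97 and 0.91. *Alas1*, the rate-limiting enzyme of heme synthesis, peaked at CT13.4 and CT14.1 with 1.49 and 1.67. *Cyp2a5*, a P450 enzyme that oxidises coumarin, peaked at CT13.0 and CT13.6 with 1.21 and 1.16. *Cyp2a4* passed in ΔRRE alone, with an adjusted p of 0.0255 against 0.177 in WT, and the difference itself did not pass, with an unadjusted p of 0.182 in limma. *Cyp2a4* and *Cyp2a5* are near-identical copies, so reads may have been split between them and their values are uncertain. *Cyp7a1*, the rate-limiting enzyme of bile acid synthesis, had amplitudes of 0.93 and 0.77 with adjusted p-values of 0.0501 and 0.284. None of the 12 differed in rhythm or in mean level after adjustment with limma, so a change in the amplitude of these genes was not shown. For the mean level, 2 of 12 had an unadjusted p under 0.05 in limma, against 8.91% of all genes. These were *Cyp2a5* with -0.68 ± 0.163 (SE), ΔRRE minus WT, at an unadjusted p of 0.000436 and an adjusted p of 0.332, and *Lpl*, lipoprotein lipase, with 0.70 ± 0.225 at an adjusted p of 0.395.

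The promoter windows of these lists were searched for the D-box in the forms TTATGTAA, TTATGCAA, TTACGTAA and TTACGCAA on either strand. Matches stood in 2 of the 6 D-box clock genes that had a window, *Per1* and *Per3*, and in 3 of the 10 output genes with one, *Cyp2a4*, *Cyp2a5* and *Cyp2b10*, where 1.94% of all windows held a match. The lists were put together from knowledge of D-box genes, so these shares are a description. The sites are shown, with the element in capitals on the strand of the gene, because they are the letters that the activators and the repressor share.
Per1, chr11:69098914-69098943, plus strand: agggcctggcaTTATGCAAcccgcctccca
Per3, chr4:151044852-151044881, minus strand: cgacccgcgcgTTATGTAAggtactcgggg
Per3, chr4:151044805-151044834, minus strand: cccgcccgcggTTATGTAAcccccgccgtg
Cyp2a4, chr7:26307111-26307140, plus strand: aggtgaaatagTTGCATAAtcaagaccaaa
Cyp2a5, chr7:26835257-26835286, plus strand: aggtgaaatagTTGCATAAtcaagaccaaa
Cyp2b10, chr7:25897589-25897618, plus strand: aacagctgaagTTGCATAActgagtggaga
The 30 bases shown of *Cyp2a4* and *Cyp2a5* are the same letters. Of the genes with a site, *Per1*, *Per3* and *Cyp2a5* were rhythmic in both genotypes with peaks from CT12.7 to CT13.9. *Cyp2a4* had fitted peaks at CT12.5 in WT and CT13.2 in ΔRRE, with adjusted p-values of 0.177 and 0.0255 in limma. *Cyp2b10* had a fitted peak at CT21.3 in WT, with an amplitude of 1.16 ± 0.374 (SE) and an adjusted p of 0.131 in limma. Its amplitude in ΔRRE was 0.17 ± 0.257. The difference in rhythm had an unadjusted p of 0.102 and an adjusted p of 0.99993 in limma, so a loss of rhythm was not shown.

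The C/EBP family, bZIP factors that bind related sites and are abundant in liver, was described as a neighbouring list of 6. At an adjusted p under 0.05, 2 were rhythmic in WT, *Cebpb* with an amplitude of 0.53 and *Ddit3* with 0.61, and 0 in ΔRRE in limma, where the unadjusted p of both and of *Cebpd* was under 0.05. Over all genes tested, 10.3% were called in WT and 4.57% in ΔRRE. None differed in rhythm or mean level after adjustment in limma, and 1 of 6, *Cebpa*, had an unadjusted p under 0.05 for the mean level, against 8.91% of all genes, with -0.14 ± 0.0595 (SE), ΔRRE minus WT. *Cebpa*, a defining factor of hepatocytes, stood at a mean of 166 FPKM with amplitudes of 0.18 and 0.14, so the most abundant member of this family did not swing as *Dbp*, *Tef* and *Nfil3* did.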

How the data were processed

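For every library the authors deposited the FPKM of 54733 genes, and replicates were not pooled. Per the labels, the submitters' processing notes name Trimmomatic 0.39, HISAT2 2.1.0, StringTie 1.3.5 and the build mm10. The sources used here do not state the settings, and they give no counts. The merged table of the series was not used.

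Samples were grouped by genotype and time point from their labels. The values analysed were log2(FPKM + 0.1) of the 11244 genes averaging 1 FPKM or more. Models were run in limma 3.58.1 (R 4.3.3) with a variance prior that follows the level and Benjamini-Hochberg adjustment over all these genes. BIO_CYCLE, the rhythm program of the study, was not run here, and harmonic regression took its place. Exact permutation tests and motif searches used Python 3.11.15, and figures matplotlib 3.10.9. The models were tested on simulated data. Promoter sequences and coordinates of elements are from RefSeq (GRCm38.p6) and gene positions from GENCODE M21 (54603 of 54733 identifiers matched).

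The members and lists were chosen with earlier results of these data known. The genes named are the 4 members, the listed genes, the genes that overlap a member and, for each member, the 5 genes with the highest Pearson's r. One gene that this rule names is not reported here. Replicate numbers do not mark a shared animal or day in the labels. The correlation of the deviations of same-numbered libraries exceeded 0.1 in 20 of 66 pairs of groups (range -0.138 to 0.305, median 0.0669). No pairing was used in the main fits, and the fit with the replicate block is given below. The alternatives were other constants, filters and priors, rescaling by the median of ratios, the replicate block, 1 shared spread, time as a factor, a ratio over 2, other forms of the balance, and leaving out each library or time point.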

Additional observations from a re-analysis of the deposited data

How the results depend on the processing

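The fit with the replicate block called 3 of the 4 members rhythmic in each genotype, as without it, and gave 0.34 for the mean level difference of Nfil3. It changed no call of a member and ended the one call over all genes for a difference in rhythm, that of Arntl. The labels do not say whether the replicate numbers pair the samples. The WT call of Nfil3 was lost with no filter (adjusted p 0.0649) and without CT10 (0.128). With no filter its amplitude stayed at 1.32 and more genes were tested, and without CT10, its lowest time point, its amplitude was 1.01. By the study's criteria the count fell from 4 to 3 members in WT without CT14, and in ΔRRE with a ratio over 2 or without CT6, CT22 or any single library of these. Without single libraries, the 12 h count ran from 1 to 3 members, the amplitude difference of Nfil3 from -0.237 to 0.0751 and the mean level difference of Hlf from -0.0684 to 0.0497. Leaving out CT2 turned the amplitude differences of Tef to 0.0241 and of Nfil3 to 0.118. Leaving out CT6 turned that of Nfil3 to 0.0180 and the mean level difference of Dbp to 0.0222. Leaving out CT10 turned the amplitude differences of Hlf to 0.0433 and of Nfil3 to 0.0377 and the Hlf mean level difference to 0.0369. Leaving out CT14 turned the amplitude difference of Hlf to 0.00455 and its mean level difference to 0.0592, and leaving out CT22 turned the latter to 0.0549. These values were not called in any fit, and the cause was not tested. Peak times moved by more than their SE when a time point was left out, the WT peak of Dbp to between CT9.82 and CT11.2. The number of reads behind an FPKM is unknown, which limits what the low values of Dbp at CT2 can show.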
